A study of Mus musculus with 6 samples.

Results

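Type 17 genes are the genes of lymphocytes that answer IL-23 and make IL-17 and IL-22. The 9 genes described here are Il23r, Il17a, Il17f, Il22, Il17re, Il1r1, Kit, Tmem176a and Tmem176b, out of 38924 genes in the files. They were chosen by function and by their read counts in ILT3+ against ILT3- cells in these same libraries. Their difference between the groups is therefore given as a description, without a test, and all 9 were found in the files by name.

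RNA was sequenced from untreated wild-type mouse CD4+CD25+ T cells, a fraction rich in regulatory T cells (Tregs), in 3 ILT3+ and 3 ILT3- samples. ILT3 is an inhibitory immunoglobulin-like receptor, and the comparison asks how cells that carry it on their surface differ from those that do not. Cells of both groups came from spleen and mesenteric lymph nodes of syngeneic males and females of 10 to 16 weeks, were enriched on magnetic columns for CD25 and CD4, and were sorted by flow cytometry. The labels do not tie a sample to an animal, a sex or a single organ, and a p-value here measures sample-to-sample spread alone, part of which may be technical. Depth was 10768217 to 11960289 reads in ILT3+ libraries and 9334370 to 13648274 reads in ILT3- libraries. Levels are given as CPM, reads of a gene scaled to library depth by TMM factors. Lilrb4, the gene of ILT3, was at 304, 283 and 406 CPM in ILT3+ samples 1 to 3, against 3.24, 4.31 and 5.80 CPM in ILT3- samples 1 to 3, so the libraries matched their sort labels. Samples numbered 1 stood apart from the others in both groups, and 786 genes were called without them, against 316 with all 6 libraries, so values without them are given where they bear on a gene.

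IL-23 is a cytokine of dendritic cells and macrophages. Its receptor pairs IL-23R with IL-12Rβ1 and signals through JAK2, TYK2 and STAT3. It maintains type 17 cells, which include Th17 cells, some γδ T cells and group 3 innate lymphoid cells (ILC3). In mice, some Tregs of the gut and its draining lymph nodes also carry type 17 features.

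The promoters of the genes for the IL-23 receptor chain and both IL-17 cytokines are shown because each of the 3 held AGGTCA, a short element that several nuclear receptors bind. The windows are RefSeq's (build GRCm38.p6), 250 bases before to 50 bases after the gene start, each read 5′ to 3′ on the gene's own strand. Il23r lies on chromosome 6 (chr6:67491806-67492105, minus strand), Il17a on chromosome 1 (chr1:20730655-20730954, plus strand) and Il17f on chromosome 1 (chr1:20784221-20784520, minus strand). Capitals mark AGGTCA or its reverse complement, and in Il17a also 1 match to TGANTCA, the AP-1 motif.
Il23r: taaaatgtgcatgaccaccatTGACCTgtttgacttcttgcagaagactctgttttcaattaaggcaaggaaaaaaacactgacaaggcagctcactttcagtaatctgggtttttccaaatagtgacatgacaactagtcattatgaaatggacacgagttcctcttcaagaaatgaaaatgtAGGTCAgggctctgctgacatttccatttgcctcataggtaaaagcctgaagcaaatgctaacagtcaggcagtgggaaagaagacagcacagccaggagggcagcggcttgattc
Il17a: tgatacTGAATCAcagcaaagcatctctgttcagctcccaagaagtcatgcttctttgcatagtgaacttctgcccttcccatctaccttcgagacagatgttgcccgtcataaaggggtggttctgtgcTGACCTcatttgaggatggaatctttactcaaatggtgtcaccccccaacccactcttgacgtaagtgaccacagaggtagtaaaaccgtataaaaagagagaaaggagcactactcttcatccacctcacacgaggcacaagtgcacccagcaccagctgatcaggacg
Il17f: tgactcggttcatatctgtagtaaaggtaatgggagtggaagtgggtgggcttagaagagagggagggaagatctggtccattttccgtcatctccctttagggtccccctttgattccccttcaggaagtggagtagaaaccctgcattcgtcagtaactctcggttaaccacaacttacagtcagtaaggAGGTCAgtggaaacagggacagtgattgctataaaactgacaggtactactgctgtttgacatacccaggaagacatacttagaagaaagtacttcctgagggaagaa

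All 9 members had at least 1 RefSeq window, 14 in all. AGGTCA, searched on both strands, was found in 3 of the 9 members and in 18.1% of the 27025 genes of the RefSeq table. Il23r held 2 matches, which began 229 and 66 bases before the gene start, while Il17a and Il17f held 1 each, 120 and 58 bases before it. TGANTCA was found in 1 member, Il17a, and in 8.97% of all genes. The STAT motif TTCNNNGAA was found in 0 members and in 9.55% of all genes. The motifs do not overlap each other in these windows, and a match describes the letters, not binding.

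Tmem176a and Tmem176b lie head to head on chromosome 6, with 108 bases between the gene models in the files. The window of Tmem176a (chr6:48841233-48841532, plus strand, GRCm38.p6) spans both starts and is shown because the pair is read in opposite directions from it. Capitals mark the 108 bases between the models, and the window held none of the 3 motifs.
Tmem176a: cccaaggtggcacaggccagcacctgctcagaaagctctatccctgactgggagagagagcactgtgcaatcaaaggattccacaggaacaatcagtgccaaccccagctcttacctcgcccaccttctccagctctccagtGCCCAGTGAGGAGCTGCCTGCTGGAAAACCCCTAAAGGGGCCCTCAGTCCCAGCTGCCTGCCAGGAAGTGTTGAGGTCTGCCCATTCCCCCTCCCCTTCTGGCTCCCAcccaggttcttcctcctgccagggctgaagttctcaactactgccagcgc

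Il23r encodes the IL-23-specific chain of the receptor. It was low but present in ILT3- cells and much higher in ILT3+ cells. Il23r (GRCm38 chromosome 6, 67422932 to 67491855, 11 exons) was at 141, 66.8 and 61.9 CPM in ILT3+ samples 1 to 3, against 5.99, 2.43 and 2.61 CPM in ILT3- samples 1 to 3. Every ILT3+ library was above every ILT3- library, and sample 1 was the highest of its group on both sides. The means were 89.9 ± 44.3 CPM in ILT3+ libraries and 3.68 ± 2.01 CPM in ILT3- libraries (n = 3 per group, SD), and the fitted log2 fold change was 4.64 (SE 0.51, edgeR).

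Most reads of Il23r lay in introns. In ILT3+ samples 1 to 3, intron reads made up 78.4%, 63.9% and 64.9% of its reads. In ILT3- samples 1 to 3 they were 25 of 50, 23 of 31 and 32 of 36 reads. No other gene model of the files overlaps this one. On exon reads alone the level was 30.5, 24.1 and 21.7 CPM in the ILT3+ libraries, against 3.00, 0.627 and 0.290 CPM in the ILT3- libraries. The high value of ILT3+ sample 1 was thus mostly in introns, at 110 CPM against 42.7 and 40.2 CPM in ILT3+ samples 2 and 3. All exon reads of Il23r were uniquely placed, 900 in ILT3+ and 37 in ILT3- libraries.

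**Figure D1:**
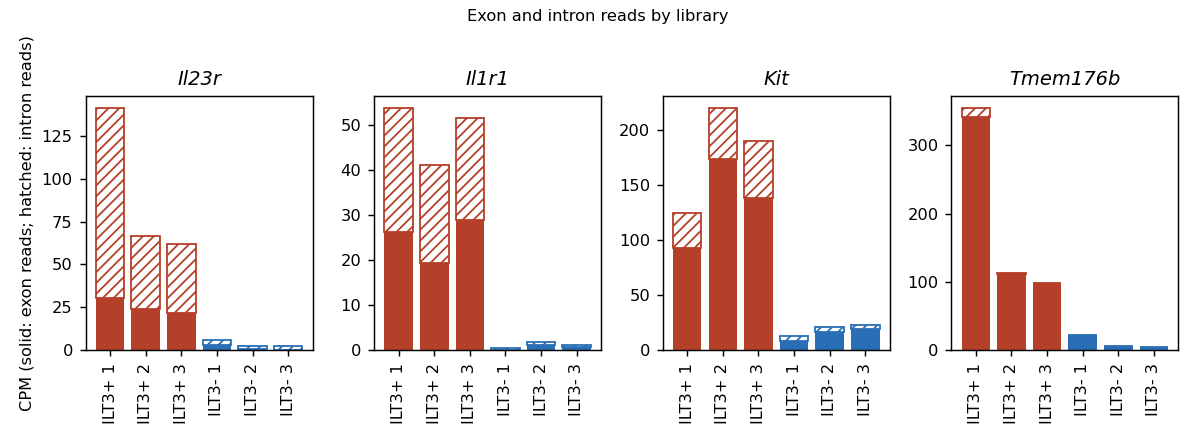
Exon reads (solid) and intron reads (hatched) of 4 genes, in CPM, by library, ILT3+ in red and ILT3- in blue. Intron reads made up 71.1% of all ILT3+ reads of Il23r and 49.0% of those of Il1r1, but 24.2% of those of Kit and 2.59% of those of Tmem176b.

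Il1r1 encodes the signalling receptor for IL-1, which acts with IL-23 on type 17 cells. It lies on chromosome 1 (40225080 to 40316198) and was at 53.6, 41.2 and 51.5 CPM in ILT3+ samples 1 to 3, against 0.479, 1.80 and 1.16 CPM in ILT3- samples 1 to 3. The ILT3+ libraries lay close together, within 1.30 times of each other, and far above the ILT3- libraries. On unique exon reads the ILT3+ libraries held 281, 240 and 363 reads, against 0, 16 and 11 in ILT3- samples 1 to 3. The fitted log2 fold change was 5.35 (SE 0.47, edgeR).

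Il17re encodes a receptor chain for IL-17C that pairs with IL-17RA. It lies on chromosome 6 (113458484 to 113470751) and was at 25.5, 29.9 and 25.1 CPM in ILT3+ samples 1 to 3, against 0, 1.25 and 1.30 CPM in ILT3- samples 1 to 3. It was the steadiest of the 9 genes among the ILT3+ libraries, with the highest 1.19 times the lowest. Summed over libraries, 962 ILT3+ reads stood against 34 ILT3- reads, a ratio per depth of 27.6 (exact 95% counting interval 19.6 to 40.2). That interval leaves out the spread between libraries. The fitted log2 fold change was 4.89 (SE 0.83, edgeR).

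Kit encodes the receptor for stem cell factor, known from ILC3, mast cells and blood progenitors. It lies on chromosome 5 (75574916 to 75656722) and was at 125, 220 and 190 CPM in ILT3+ samples 1 to 3, against 12.7, 21.2 and 23.0 CPM in ILT3- samples 1 to 3. The groups did not overlap, and sample 1 was the lowest of its group on both sides. The fitted log2 fold change was 3.22 (SE 0.31, edgeR), and the ILT3- level of 19.0 ± 5.50 CPM (SD, n = 3) was the highest of the 9 genes in that group. Of its ILT3+ reads 97.6% were uniquely placed.

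The cytokine genes were nearly silent in ILT3- cells and uneven among ILT3+ cells. Il17a encodes IL-17A, which calls neutrophils through epithelial and stromal cells. It lies on chromosome 1 (20730905 to 20734496) and had 8, 160 and 327 reads in ILT3+ samples 1 to 3, against 0, 0 and 1 read in ILT3- samples 1 to 3. These are 0.749, 12.8 and 26.0 CPM in the ILT3+ libraries, with exact 95% counting intervals of 0.323 to 1.48, 10.9 to 14.99 and 23.3 to 29.0 CPM. ILT3+ sample 3 was thus 34.8 times ILT3+ sample 1, well beyond counting error. The ratio of the summed reads per depth was 484, with a counting interval of 86.4 to 19142 that reflects the single ILT3- read. Since too few libraries had enough reads, Il17a did not enter the fit.

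Il17f, the neighbour and closest relative of Il17a, had 57, 160 and 175 reads in ILT3+ samples 1 to 3, against 0 reads in every ILT3- library. It lies on chromosome 1 (20777151 to 20784270) on the opposite strand, 42654 bases from Il17a. With a floor of 3 reads set for the ILT3- group, the ratio of summed reads per depth was 127.67. This is not a lower bound, since the lower limit of the exact 95% counting interval of the ratio was 103. The fitted log2 fold change was 9.98 (SE 1.10, edgeR), and 9.36 with DESeq2. With 0 ILT3- reads the counts alone give no finite fold, so the size of the fitted value depends on the method. The ILT3+ levels were 5.33, 12.8 and 13.9 CPM, so the lowest was again sample 1, but the spread of 2.61 times was smaller than that of Il17a. Per kilobase of exon, the ratio of Il17a to Il17f was 0.143 in ILT3+ sample 1 (exact 95% counting interval 0.0589 to 0.302), 1.06 in sample 2 (0.843 to 1.34) and 1.88 in sample 3 (1.55 to 2.27).

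Il22 encodes IL-22, which acts on epithelium rather than on leukocytes. It lies on chromosome 10 (118204942 to 118210047) and had 84, 198 and 401 reads in ILT3+ samples 1 to 3, against 0, 6 and 3 in ILT3- samples 1 to 3. ILT3+ sample 1 was the lowest for this cytokine too, at 7.86 CPM, with 15.9 and 31.9 CPM in samples 2 and 3. The ratio of summed reads per depth was 74.2 (exact 95% counting interval 38.8 to 163, without the spread between libraries). The fitted log2 fold change was 6.17 (SE 0.94, edgeR). Only 60.3% of its ILT3+ reads were uniquely placed. A second copy, Iltifb, lies on the same chromosome (118289629 to 118295038) and had 4, 6 and 1 reads in the ILT3+ libraries, so reads shared by the copies cannot be assigned with certainty. On unique exon reads alone Il22 held 32, 118 and 221 reads in ILT3+ samples 1 to 3, against 0, 4 and 3 in ILT3- samples 1 to 3.

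Tmem176a and Tmem176b encode related membrane proteins reported as cation channels, known both from type 17 lymphocytes and from dendritic cells and macrophages. Tmem176b (chromosome 6, 48833811 to 48841374) was at 355, 114 and 99.3 CPM in ILT3+ samples 1 to 3, against 22.4, 7.13 and 4.64 CPM in ILT3- samples 1 to 3. Tmem176a (chromosome 6, 48841483 to 48845364) was at 264, 74.8 and 63.7 CPM in ILT3+ samples 1 to 3, against 18.9, 2.43 and 4.42 CPM in ILT3- samples 1 to 3. The pair moved together, with sample 1 highest in each group and no overlap between groups. The fitted log2 fold changes were 3.999 (SE 0.89) for Tmem176a and 4.08 (SE 0.75) for Tmem176b in edgeR. All reads of both genes were uniquely placed, although strand use in the counting is not stated and reads near the shared start region could count for either gene.

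**Figure D2:**
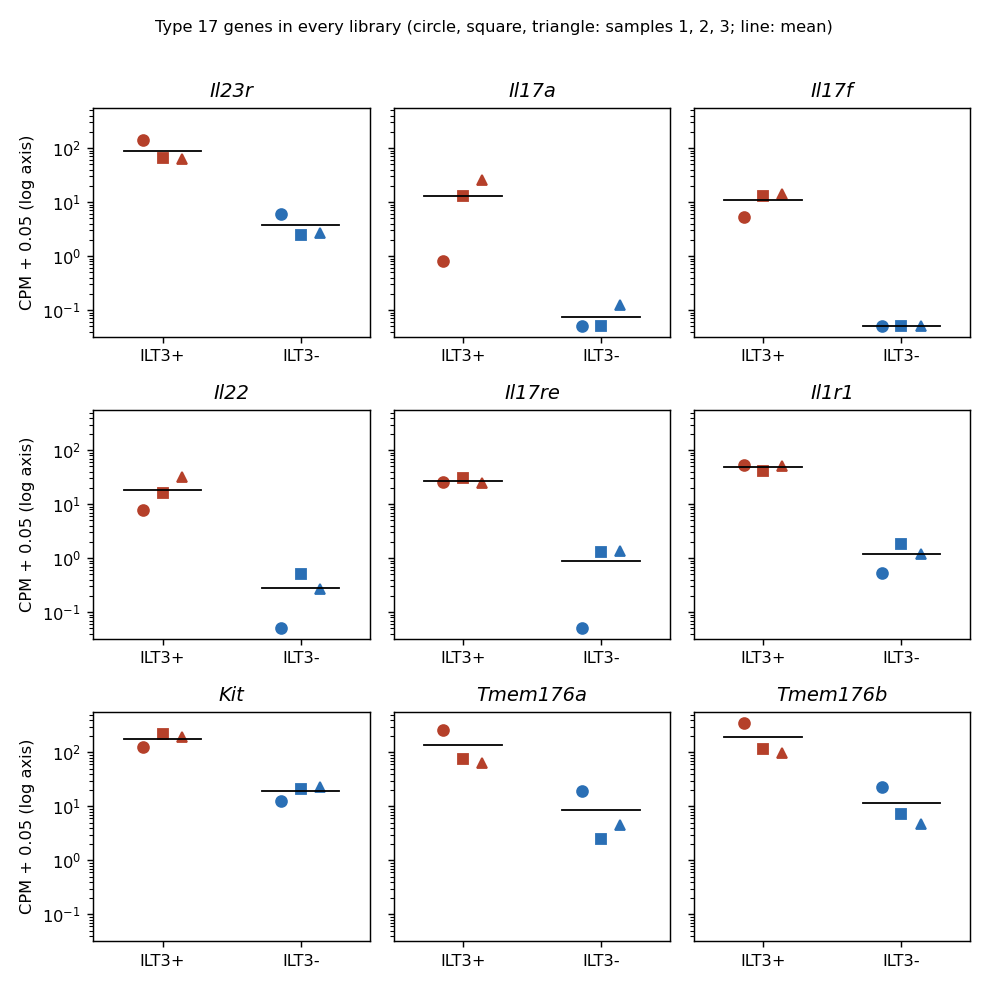
CPM of the 9 genes in every library on a log axis, with 0.05 CPM added so that libraries at 0 can be drawn, ILT3+ in red left of ILT3- in blue, and lines at the group means. In every panel the ILT3+ libraries lie above the ILT3- libraries, and Il17f is at 0 in all 3 ILT3- libraries.

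In all 9 genes every ILT3+ library was above every ILT3- library in CPM, while 11.4% of the 13694 tested genes were separated in that direction. Of the 9, 8 passed the filter on low counts and Il17a did not. The genes were picked on this contrast, so nothing is read from this count. In bulk RNA, a larger number of cells of 1 kind and more RNA per cell cannot be told apart.

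Per kilobase of exon, the Tmem176 pair was the most abundant of the set. Exon reads per kilobase, scaled to the exon depth of each library as in RPKM, averaged 158 ± 131 for Tmem176a, 122 ± 87.3 for Tmem176b, 31.9 ± 10.0 for Kit, 21.2 ± 16.0 for Il22 and 15.5 ± 14.99 for Il17a in ILT3+ cells (SD, n = 3). The same measure was 14.01 ± 2.09 for Il23r, 12.1 ± 5.48 for Il17f, 8.91 ± 1.19 for Il17re and 6.75 ± 1.40 for Il1r1. Of neighbours in this order, the ranges over ILT3+ libraries were apart only for Tmem176b, at 67.55 or more, and Kit, at 41.1 or less. In ILT3- cells the order began with Tmem176a at 8.78 ± 8.40, Tmem176b at 7.18 ± 5.66 and Kit at 3.404 ± 1.37, and the other 6 genes averaged 0.670 or less.

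The 9 genes did not vary as 1 block among the ILT3+ libraries. Il17a, Il17f, Il22 and Kit were lowest in ILT3+ sample 1, whereas Il23r, Tmem176a, Tmem176b and, by a small margin, Il1r1 were highest there. Per kilobase of exon, the ratio of Il17a to Il23r was 0.0521 in ILT3+ sample 1 (exact 95% counting interval 0.0223 to 0.104), 1.11 in sample 2 (0.908 to 1.35) and 2.51 in sample 3 (2.13 to 2.96). The ratio of Tmem176b to Il23r on the same scale was 13.6 in sample 1 (12.2 to 15.3), 5.64 in sample 2 (4.97 to 6.40) and 5.49 in sample 3 (4.81 to 6.29). With 3 libraries, the differences between them exceed counting error but have no replicate of their own.

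**Figure D3:**
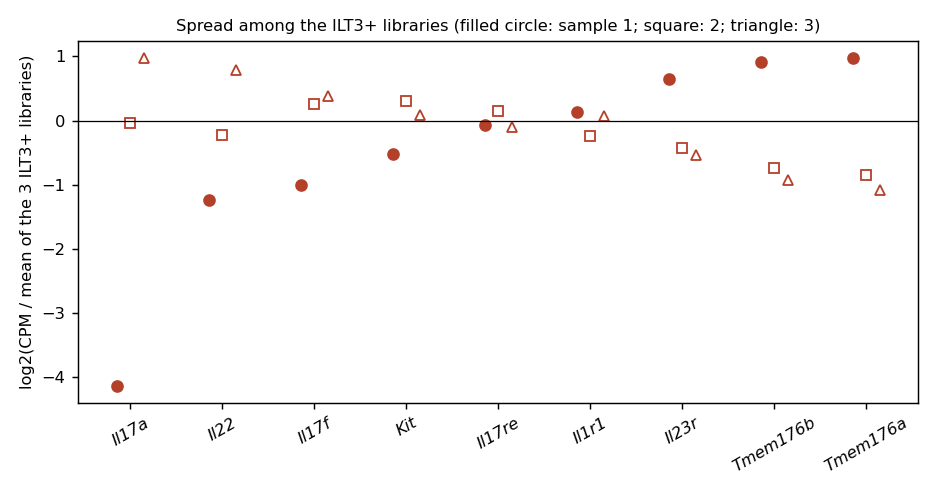
Each gene's CPM in the 3 ILT3+ libraries relative to their mean, on the log2 scale, with sample 1 as a filled circle and samples 2 and 3 as an open square and triangle. Sample 1 is far below for Il17a (0.749 CPM, against 12.8 and 26.0 CPM in samples 2 and 3) and above for Tmem176a (264 CPM, against 74.8 and 63.7 CPM).

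Set against the ILT3- library of the same number, Kit and Tmem176b kept ratios whose counting intervals overlapped across numbers on total gene reads, and Tmem176a did not. The fold of Kit was 9.82 (exact 95% counting interval 8.05 to 12.1), 10.3 (9.13 to 11.8) and 8.25 (7.34 to 9.31) in numbers 1, 2 and 3. On unique exon reads the fold of Kit was 10.8 (8.49 to 13.9), 10.5 (9.15 to 12.2) and 7.196 (6.32 to 8.22), so that number 3 lay below the intervals of the others. For Tmem176b the fold on total gene reads was 15.8 (13.7 to 18.4), 16.0 (12.9 to 19.95) and 21.4 (16.6 to 27.97), and for Tmem176a 13.96 (11.9 to 16.5), 30.8 (21.5 to 45.6) and 14.4 (11.1 to 19.0). The high values of samples numbered 1 thus occurred on both sides of the comparison.

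The fold of Il23r within numbers was 23.5 (17.7 to 31.8), 27.5 (19.2 to 40.7) and 23.7 (16.99 to 34.1) on total gene reads. On unique exon reads it was 10.2 (6.77 to 16.0), 38.5 (19.3 to 90.02) and 74.9 (28.9 to 277). The steady ratio of Il23r therefore belongs to total gene reads and does not hold on exon reads, where ILT3- samples 2 and 3 held 8 and 4 reads. For Il1r1 the folds were 112 (43.5 to 412), 22.8 (15.05 to 36.3) and 44.4 (27.1 to 78.1), the first resting on 4 reads of ILT3- sample 1.

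Genes of the type 17 pathway outside this set rose in part. A total of 5 lists by role held 73 genes, none of them among the 9, and 57 passed the filter on low counts. The lists were chosen with earlier results of these data known, so their share of calls is a description and no independent support. Of the 57, 7 were higher (among them Il12rb1, Batf, Maf, Nr1d1, Il10 and Cxcr6) and 0 were lower in ILT3+ cells at an adjusted p of 0.05 (edgeR), where 1.96% of all tested genes were called higher and 0.343% lower. DESeq2 called 15 higher and 3 lower, beside 693 higher and 255 lower among all 13694 tested genes. At an unadjusted edgeR p under 0.05, 18 were higher and 6 lower. The share of all genes at an unadjusted p is not given here, so such counts are not set against a background. The median log2 fold change of the 57 was 0.32, beside -0.02 over all 13694 tested genes. With the replicate number as a block, 16 were called higher and 3 lower, beside 573 higher and 359 lower among all tested genes. Leaving out any 1 of the libraries numbered 2 or 3 brought the count to 0, with 23 or 24 genes at an unadjusted p under 0.05.

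Il12rb1, the receptor chain that IL-23R pairs with, was at 110, 115 and 121 CPM in ILT3+ samples 1 to 3, against 42.2, 29.7 and 47.6 CPM in ILT3- samples 1 to 3. It rose by 1.53 on the log2 scale (SE 0.22; edgeR adjusted p = 0.0150). Thus ILT3- cells held this chain at a readily measured level while Il23r averaged 3.68 CPM there. Among the other 16 tested genes of receptors and signalling, none was called by edgeR, 4 had an unadjusted p under 0.05, and DESeq2 called 2 higher and 2 lower in the list of 17. Stat3, the factor activated by the IL-23 receptor, was at 291, 590 and 633 CPM in ILT3+ samples 1 to 3, against 397, 460 and 554 CPM in ILT3- samples 1 to 3. Its log2 fold change was 0.10 (SE 0.30; edgeR adjusted p = 0.934), and the sign turned when ILT3+ sample 2 (-0.01) or 3 (-0.09) was left out, and likewise for ILT3- sample 1 (-0.01).

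Of 18 transcription factors 4 rose and none fell by edgeR, with 8 and 2 at an unadjusted p under 0.05 and 7 and 1 called by DESeq2.

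Maf, which is known to act on Il10, rose by 2.66 on the log2 scale (SE 0.35; edgeR adjusted p = 0.0127), with 143 ± 33.7 CPM in ILT3+ libraries and 22.6 ± 10.4 CPM in ILT3- libraries (SD). Batf, an AP-1 family factor needed for Th17 cells, rose by 1.63 on the log2 scale (SE 0.26; edgeR adjusted p = 0.0216), with 189 ± 36.7 CPM in ILT3+ libraries and 60.9 ± 17.5 CPM in ILT3- libraries (SD). On unique exon reads the value for Batf was 1.57 and missed the threshold (edgeR adjusted p = 0.0511). Nr1d1, a nuclear receptor of the circadian clock, was at 64.6, 24.6 and 17.5 CPM in ILT3+ samples 1 to 3, against 3.48, 2.04 and 5.001 CPM in ILT3- samples 1 to 3. It rose by 3.34 on the log2 scale (SE 0.61; edgeR adjusted p = 0.0365), and the call was lost whichever single library was left out (edgeR adjusted p = 0.0566 to 0.152).

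Of 13 tested genes for cytokines and surface molecules 2 rose and none fell by edgeR, with 7 and 0 at an unadjusted p under 0.05 and 6 and 0 called by DESeq2. Il10, whose product restrains inflammation, was at 99.4, 131 and 226 CPM in ILT3+ samples 1 to 3, against 14.3, 24.5 and 43.7 CPM in ILT3- samples 1 to 3. It rose by 2.46 on the log2 scale (SE 0.46; edgeR adjusted p = 0.0392). The call was lost on total exon reads (edgeR adjusted p = 0.111), on unique exon reads (0.123) and without ILT3- sample 1 (0.0523). Cxcr6, a chemokine receptor of tissue lymphocytes, was at 34.4, 72.7 and 33.3 CPM in ILT3+ samples 1 to 3, against 0, 0.862 and 2.32 CPM in ILT3- samples 1 to 3. It rose by 5.36 on the log2 scale (SE 0.91; edgeR adjusted p = 0.0277). Only 8.47% of the reads of Cxcr6 were uniquely placed, and its call was lost on unique exon reads, where the log2 fold change was 3.65 (edgeR adjusted p = 0.137). Ccr6, the chemokine receptor typical of type 17 cells, was at 276, 108 and 155 CPM in ILT3+ samples 1 to 3, against 71.7, 37.9 and 44.1 CPM in ILT3- samples 1 to 3. Its log2 fold change of 1.81 (SE 0.39) missed the threshold in edgeR (adjusted p = 0.0618) and passed with the replicate number as a block (1.76, adjusted p = 0.00253). It also passed without both samples numbered 1 (1.71, edgeR adjusted p = 0.00700) and with DESeq2 (1.81, adjusted p = 0.000311), and the adjusted p over all 14 alternatives ran to 0.235.

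None of 6 tested genes of the IL-17 and IL-22 receptor family was called by edgeR or DESeq2, with 2 lower at an unadjusted p under 0.05. Il17ra, the chain shared by the IL-17 receptors, was at 38.6, 121 and 111 CPM in ILT3+ samples 1 to 3, against 154, 201 and 180 CPM in ILT3- samples 1 to 3. Its log2 fold change was -0.98 (SE 0.39; edgeR adjusted p = 0.313), so the values of the shared chain lay on the opposite side from those of Il17re. Of 10 genes for cytokines that induce type 17 cells, 3 passed the filter on low counts. None of the 3 was called by edgeR or DESeq2, and 0 had an unadjusted p under 0.05. Il23a and Il12b, the subunits of IL-23 itself, had 0 reads each in ILT3+ libraries, against 4 and 0 reads in ILT3- libraries. The other 5 genes below the filter had few reads but more in ILT3+ libraries. Il6 had 37 reads in ILT3+ libraries, against 2 in ILT3- libraries, Il12a had 36 against 1, Il1b had 32 against 0, Il27 had 7 against 2 and Il1a had 6 against 1.

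**Figure D4:**
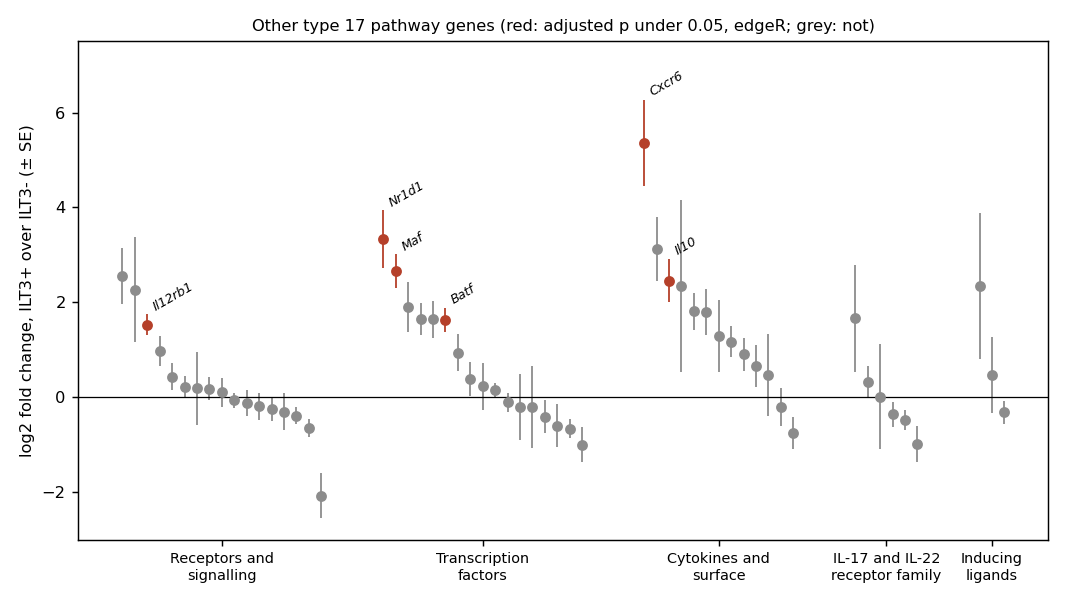
Log2 fold change with its SE (ILT3+ over ILT3-) of the tested genes in the 5 pathway lists other than 1 not reported here, none of which is among the 9 genes described above. The 6 genes in red passed an adjusted p of 0.05 and lie between 1.53 (Il12rb1) and 5.36 (Cxcr6).

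Of the 5 genes with the total gene read profile most like that of Il23r, 3 were MHC class II genes. The likeness rests on total gene reads, where the high value of Il23r in ILT3+ sample 1 lay mostly in introns. The measure was the root mean square difference of log2 CPM over the 6 libraries, each gene centred on its own mean. The search covered 8644 genes of at least 10 CPM on average, with predicted Gm genes, Rik clones and the 9 members left out. The smallest differences were those of H2-Aa (0.156), H2-Eb1 (0.241), H2-Ab1 (0.275), Hk3 (0.388) and Piwil4 (0.418), beside 0.441 for Tmem176b and 0.583 for Tmem176a. H2-Aa was at 479, 201 and 169 CPM in ILT3+ samples 1 to 3, against 15.7, 8.78 and 8.77 CPM in ILT3- samples 1 to 3. The genes nearest to Il17a were Pdgfa (0.761), Fam129b (0.889), Chad (1.04), Parvb (1.09) and Adam8 (1.14), beside 1.11 for Il22 and 1.12 for Il17f. Pdgfa, a growth factor gene, was at 4.21, 36.7 and 53.9 CPM in ILT3+ samples 1 to 3, against 0.240, 0 and 0.942 CPM in ILT3- samples 1 to 3. The nearest genes to Il17a lay farther from it than those of Il23r did from Il23r. These distances are not comparable, since Il17a was nearly silent in ILT3- libraries and the prior count largely sets its log2 values there.

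Both groups carried the marker genes of the sorted cells. Summed over the list of 12 genes, αβ T cell markers were at 5474 to 6780 CPM in ILT3+ libraries, against 6965 to 8516 CPM in ILT3- libraries. Cd3e was at 602 to 840 CPM in ILT3+ libraries, against 617 to 915 CPM in ILT3- libraries, and Foxp3 at 756 to 1000.4 CPM in ILT3+ libraries, against 674 to 1120.3 CPM in ILT3- libraries. None of the 12 αβ T cell or 10 Treg markers was called by edgeR.

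Several cell types other than αβ T cells use the 9 genes, and their markers were measured beside them. For γδ T cells 11 of 12 genes were matched in the files, and the list summed to 73.6, 75.9 and 46.3 CPM in ILT3+ samples 1 to 3, against 20.3, 5.96 and 3.62 CPM in ILT3- samples 1 to 3. Its defining gene Tcrg-C1, a γ chain constant segment, was at 24.9, 1.85 and 3.74 CPM in ILT3+ samples 1 to 3, against 4.19, 0.0784 and 0 CPM in ILT3- samples 1 to 3. Tcrg-C1 was thus highest in sample 1 of both groups, and 1 of the 5 tested genes of the list was called higher. Of the γδ T cell list, the rise was that of 5830411N06Rik, at 22.2, 61.2 and 32.9 CPM in ILT3+ samples 1 to 3, against 3.36, 2.59 and 2.39 CPM in ILT3- samples 1 to 3.

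Mouse ILC3 can carry CD4, so the sort does not by itself remove them. Of the 10 ILC3 genes, 5 are also in other lists. The 10 summed to 1637 to 2437 CPM in ILT3+ libraries, against 1199 to 1791 CPM in ILT3- libraries. Tox, Ltb and Il7r made up most of that sum in every library. They averaged 660, 455 and 326 CPM in ILT3+ libraries, against 594, 527 and 145 CPM in ILT3- libraries. The sums thus say little about the defining genes. By edgeR, 2 of 9 tested genes were called higher, among them Id2, a factor needed by innate lymphoid cells. The defining gene Ncr1, which is also an NK cell gene, was at 5.80, 0 and 0.637 CPM in ILT3+ samples 1 to 3, against 0.959, 0 and 0 CPM in ILT3- samples 1 to 3. The other, Tnfsf11, was at 20.2, 9.23 and 25.8 CPM in ILT3+ samples 1 to 3, against 57.2, 7.29 and 14.6 CPM in ILT3- samples 1 to 3. The part of γδ T cells and ILC3 in the type 17 values was not tested.

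For Kit, mast cell markers and the progenitor marker Cd34 were at or near 0, while Meis1 and Gata1 were read in every library, in opposite directions. The 12 mast cell and basophil genes summed to 5.24, 0.722 and 1.03 CPM in ILT3+ samples 1 to 3, against 9.59, 1.96 and 3.55 CPM in ILT3- samples 1 to 3, and 10 of them had 0 reads in all ILT3+ libraries. Fcer1a had 0 reads in all 6 libraries, Ms4a2 had 0 in the ILT3+ libraries, and Cpa3 was at 0.239 to 1.40 CPM in ILT3+ libraries, against 0.549 to 2.40 CPM in ILT3- libraries. The 7 progenitor genes summed to 37.1, 11.7 and 9.95 CPM in ILT3+ samples 1 to 3, against 53.4, 18.0 and 16.6 CPM in ILT3- samples 1 to 3. Of these, Cd34 was at 0, 0 and 0.0796 CPM in ILT3+ samples 1 to 3, against 0, 0 and 0.0725 CPM in ILT3- samples 1 to 3. Meis1 was at 20.2, 8.50 and 6.45 CPM in ILT3+ samples 1 to 3, against 4.67, 0.392 and 0.217 CPM in ILT3- samples 1 to 3. Gata1 of the same list was lower in ILT3+ cells, at 16.5, 2.33 and 3.18 CPM, against 48.4, 17.4 and 16.1 CPM in ILT3- samples 1 to 3. The bearing of either gene on the Kit values was not tested.

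For the Tmem176 pair, macrophage markers were high in 1 ILT3+ library. The 12 monocyte and macrophage genes summed to 840, 91.9 and 109 CPM in ILT3+ samples 1 to 3, against 148, 89.0 and 116 CPM in ILT3- samples 1 to 3. Cx3cr1 made up most of that sum in every library but ILT3+ sample 1. It was at 119, 63.6 and 78.5 CPM in ILT3+ and 123, 71.2 and 108 CPM in ILT3- samples 1 to 3. Of its reads, 97.4% lay in introns and only 9.50% were uniquely placed, so the sums say little about the other genes of the list. Csf1r, the macrophage growth factor receptor gene, was at 265, 2.25 and 0.398 CPM in ILT3+ samples 1 to 3, against 3.24, 0.627 and 0.217 CPM in ILT3- samples 1 to 3. Adgre1, the other defining gene, was at 147, 2.97 and 6.92 CPM in ILT3+ samples 1 to 3, against 5.63, 1.02 and 0.652 CPM in ILT3- samples 1 to 3. In the pairs numbered 2 and 3, Tmem176b was 16.0 and 21.4 times as high in the ILT3+ library. Csf1r and Adgre1, though low, were also higher in the ILT3+ library of both pairs. Without both samples numbered 1 the fitted log2 fold changes were 4.36 (SE 0.34) for Tmem176a, 4.21 (SE 0.27) for Tmem176b and 4.70 (SE 0.27) for Il23r. The part of macrophages in the values of these genes was not tested, in samples numbered 1 or in the others.

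Dendritic cell markers were uneven. Zbtb46 was at 11.8, 25.6 and 35.9 CPM in ILT3+ samples 1 to 3, against 1.44, 9.80 and 10.5 CPM in ILT3- samples 1 to 3, while Flt3 was at 1.28 to 2.25 CPM in ILT3+ libraries, against 1.18 to 2.52 CPM in ILT3- libraries. Of the 5 tested genes of that list 1, Batf3, was called higher. The NK, B cell, neutrophil, and stromal and endothelial lists held 2, 4, 0 and 2 tested genes, of which Pdgfrb of the stromal list was called higher. Their defining genes Eomes, Cd79a, S100a8, Ly6g, Col1a1 and Pdgfra stayed at or below 12.3 CPM in ILT3+ libraries, against 9.21 CPM or less in ILT3- libraries. The ILC2 list had 2 of 6 tested genes called higher, Il1rl1 and Klrg1, which Tregs also express, and its defining genes Il5 and Il13 were at or below 0.722 CPM in ILT3+ libraries, against 0.217 CPM or less in ILT3- libraries.

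**Figure D5:**
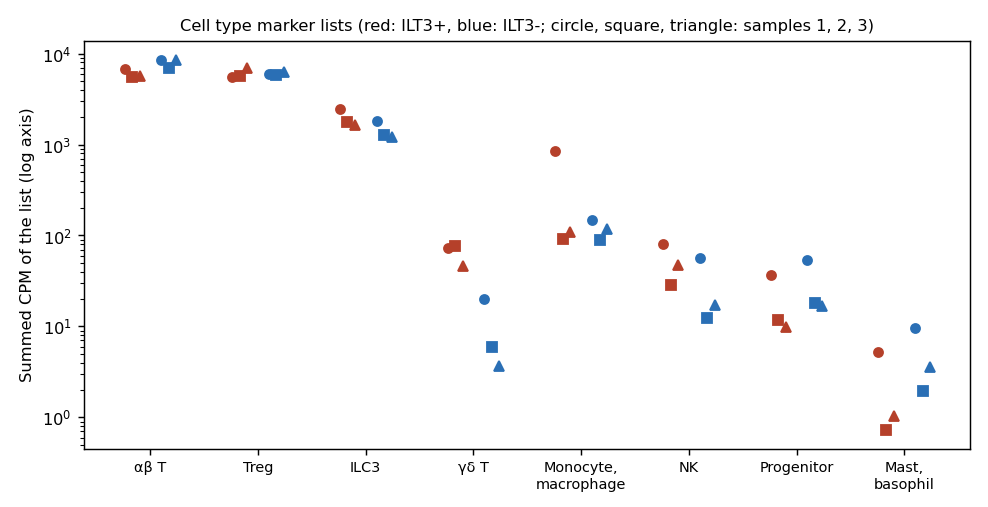
Summed CPM of marker lists of 8 cell types in every library on a log axis, ILT3+ in red left of ILT3- in blue. The monocyte and macrophage list reaches 840 CPM in ILT3+ sample 1, against 91.9 and 109 CPM in ILT3+ samples 2 and 3. In every library but ILT3+ sample 1, most of that sum is Cx3cr1, whose reads lie mainly in introns. The γδ T cell list lies between 46.3 and 75.9 CPM in ILT3+ libraries, against 3.62 to 20.3 CPM in ILT3- libraries.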

How the data were processed

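RNA of 3 ILT3+ and 3 ILT3- samples was amplified as full-length cDNA (SmartSeq V2) from 1 ng of total RNA and made into Nextera XT libraries, per the labels' protocols. The authors deposited 1 table per sample with counts of reads per gene, split by the column headers into exon, intron, exon-exon and unique reads, on GRCm38 per the submitters' processing notes. The aligner, annotation and strand setting were not given in the sources used here. Total gene reads, which in every row equal exon plus intron reads, were used. Introns held 24.0% to 28.3% of the reads of a library.

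The 9 genes and all lists were chosen with earlier results of these data known. Genes with 10 reads or more in enough libraries (filterByExpr, 13694 genes) were fitted with edgeR 4.0.16 (TMM, robust quasi-likelihood test, group as the only term, Benjamini-Hochberg adjustment over all genes, threshold 0.05) in R 4.3.3, and the fit was tested on simulated data. DESeq2 1.42.0 was an alternative. The SE printed with an edgeR log2 fold change is its absolute value divided by the square root of the F statistic. Counting intervals are exact, at 95%, and cover counting error only, as does the floor of 3 reads, which is 0.220 to 0.321 CPM by library. Genes outside the 9 were named if called in a pathway list, or if Stat3, Ccr6 or Il17ra, which were fixed by name, or if defining a marker list. The called members of marker lists, and Cx3cr1, Gata1, Tox, Ltb and Il7r, were named after their values were seen. All 73 pathway genes were matched. Of the genes this rule names, 1 called pathway gene and 1 defining marker are not reported here by name. Of the marker genes, Adgre1 was matched through a RefSeq synonym and Trdc was not matched. Likeness of profile was computed on log2 CPM with a prior count of 2.

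Replicate numbers were checked for pairing: deviations from the group means of same-numbered samples correlated across genes at 0.4, 0.26 and 0.271, above 0.1 for every pair, which meets the criterion set for pairing, although the labels do not state a shared day or animal. The values printed come from the unpaired fit, and the fit with the replicate number as a block is an alternative, given beside a result where it changes a call or a count. Other pairs of samples from opposite groups correlated at -0.305 to 0.163. No pair of libraries agreed within sampling noise.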

Additional observations from a re-analysis of the deposited data

How the results depend on the processing

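The fitted log2 fold changes of the 8 members in the fit kept their sign under all 14 alternatives each. The genes were picked on this contrast and did not overlap between groups, so nothing is read from the kept sign. The fold changes ranged for example from 4.16 to 5.15 for Il23r, from 3.01 to 3.43 for Kit and from 3.04 to 5.28 for Tmem176a. Il17a was not in the fit and was not varied. The number of genes called, 316 with all libraries, was 948 with DESeq2, 204 on unique exon reads, 786 without both samples numbered 1, and 31 to 322 with 1 library left out (53 and 57 without ILT3+ replicate 2 or 3, 67 and 31 without ILT3- replicate 2 or 3). The 7 called pathway genes became 11 with no filter, 18 with DESeq2, 4 on unique exon reads, 19 without both samples numbered 1, and 0 to 9 with 1 library left out. With the replicate block, 932 genes and 19 pathway genes were called. The pathway genes gained include Rora, Ahr, Ccl20 and Ccr6 among the higher and Il6ra, Ets1 and Dpp4 as the 3 lower ones. The Stat3 log2 fold change ran from -0.0864 to 0.381 with 1 library left out, being -0.0099 without ILT3+ replicate 2, -0.0864 without ILT3+ replicate 3 and -0.0080 without ILT3- replicate 1. The cause of these shifts was not tested. With 3 libraries a group, few reads in ILT3- cells limit the folds of Il17a, Il17f and Il22 most, and single libraries decide many calls.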

Other observations

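Some pathway genes were left out of the fit because too few libraries had enough reads. Of these, Csf2, which encodes the cytokine GM-CSF, had 198 reads summed over ILT3+ libraries, against 3 reads over ILT3- libraries. Cd5l, known as a regulator of Th17 cells and as a macrophage product, had 514 reads in ILT3+ libraries, against 18 reads in ILT3- libraries. Its level was 46.3, 0.722 and 0.796 CPM in ILT3+ samples 1 to 3, so nearly all of its reads lay in the library with the high macrophage markers. Csf2, Cd5l and Il17rc were chosen after their values were seen. Il17rc, the partner of IL-17RA for IL-17A and IL-17F, had 99 reads in ILT3+ libraries, against 10 reads in ILT3- libraries, and was at 7.11, 0.321 and 1.51 CPM in ILT3+ samples 1 to 3. Csf2 was instead lowest in sample 1, at 0.655, 5.94 and 9.31 CPM in ILT3+ samples 1 to 3. The other IL-17 family cytokines were hardly read, with 0 reads of Il17b, Il17c, Il17d and Il25 in ILT3+ libraries, against 1, 0, 3 and 0 reads in ILT3- libraries. The ratio of Il22 to Il17a exon reads per kilobase was 7.12 in ILT3+ sample 1 (exact 95% counting interval 3.37 to 17.3), 1.32 in ILT3+ sample 2 (1.06 to 1.64) and 1.23 in ILT3+ sample 3 (1.06 to 1.43).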
